A study of Mus musculus with 2 samples.

Results

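Translation initiation and elongation factors were followed on arrays of regulatory T cells with and without Hopx. The members are 44 mouse genes chosen by symbol: 38 initiation factor genes, of the eIF1, eIF2, eIF2B, eIF3, eIF4, eIF5 and eIF6 families, with the eIF4E-binding proteins, and 6 elongation factor genes. Of these, 39 of the 18193 genes measured had at least 1 probe set with a single gene symbol, 108 probe sets in all. Eif1, Eif2s1, Eif3g, Eif4g1 and Eef1g had none and have no gene value here.

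The groups were Hopx-/- cells (1 array) and Hopx-sufficient cells (1 array). Both came from mice after immunization and were T cells that dendritic cells had turned into regulatory T cells in vivo, sorted as positive for CD25 and Foxp3. Strain, age, the immunizing agent, the kind of Hopx allele and the number of mice per array are not given in the sources used here. Hopx is a small homeodomain protein that acts without binding DNA itself.

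The deposited columns are log values centred on the mean of the 2 arrays for each probe set, so they mirror each other and hold no signal level. Everything below is therefore a log2 difference, Hopx-/- minus Hopx-sufficient, with base 2 assumed, after subtracting the median over all single-symbol probe sets. A gene's value is the mean over its probe sets. With 1 array per genotype there is no replicate error, no test and no p-value. The only spread is that between probe sets of a gene, whose pooled standard deviation was 0.19 in the members and 0.18 in all genes. Folds of 1.2 and 1.5, log2 differences of 0.26 and 0.58, served as rules of size.

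Hopx itself stood at -2.43 and -2.71 on the Hopx-/- array, against 2.43 and 2.71 on the Hopx-sufficient array, in the deposited values of its 2 probe sets. Its gene value was 35.6-fold lower in Hopx-/- cells, as the labels require. The hybridization spike-ins (18 probe sets), RNAs without mouse sequence, had a median of -0.12 and ran from -0.22 to 0.01. Of the 39 members, 15 lay below the lowest spike-in and 15 within the spike-in range. Of the markers of other cells, 10 of 12 for tissue macrophages were at least 1.2-fold higher in Hopx-/- cells (background 7.1% of all genes), with a range from -0.07 (Vsig4) to 0.93 (Hmox1). All 7 measured B cell markers were below 0 (background 49.9%), from -0.41 (Cd79a) to -0.01 (Blk), and 3 were at least 1.2-fold lower (42.9%, background 10.1%). Markers of dendritic cells and monocytes were below 0 in 7 of 8 cases (87.5%, background 49.9%), from -0.38 (Lyz2) to 0.24 (Csf1r). At least 1.2-fold lower were 2 of the 8 (25%, background 10.1%). Markers of CD8 T and NK cells went both ways, from -1.23 (Gzma) to 0.43 (Nkg7). Of these 8, 3 were at least 1.2-fold lower (37.5%, background 10.1%) and 1 higher (12.5%, background 7.1%). The share below 0 was 62.5% (5 of 8, background 49.9%). The 7 Treg markers ran from -0.06 (Il2ra) to 0.37 (Ikzf2), with a median of 0.22 and 2 below 0 (28.6%, background 49.9%). Of these 7, 3 (Foxp3, Ctla4 and Ikzf2) were at least 1.2-fold higher (42.9%, background 7.1%). The part of other cells in the values below was not tested, and no level shows which markers were detected.

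To start a protein, eIF2 bound to GTP brings the initiator tRNA to the small ribosomal subunit, where eIF1, eIF1A, eIF3 and eIF5 help to find the start codon. The cap of the mRNA is held by eIF4E, and the helicase eIF4A and the scaffold eIF4G join it to load the ribosome. After each round eIF2B recharges eIF2 with GTP, a step that stress kinases block, while the elongation factors carry the ribosome along the message. T cells enlarge this machinery when activation moves them from rest to growth.

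The factors leaned lower in Hopx-/- cells, but unevenly. Of the 39 measured, 25 were below 0 (64.1%, against a background of 49.9% of all genes), and 13 were at least 1.2-fold lower (33.3%, background 10.1%). None was at least 1.2-fold higher, where the background was 7.1%. A single factor, Eif2b3, was at least 1.5-fold lower (background 1.31%), and no factor was 1.5-fold higher (background 0.297%). The median of the members was -0.08 and their mean -0.14, beside 0.00078 and -0.01 for all genes. The differences were small: the standard deviation over all genes was 0.21, and the central 95% ran from -0.48 to 0.38. Of the 13 factors past 1.2-fold, 6 lay just past that line, at most 1.21-fold lower: Eif3a, Eef1d, Eif1ad, Eif5a, Eif4e and Eif6. Eif3c lay just short of it. Scaled to the spike-ins, which puts the median of all genes at 0.12, 6 factors were at least 1.2-fold lower (background 4.54%) and 2 were higher (background 20.9%). On that scale the median of the members turned to 0.045, still below that of all genes. By family, the count past 1.2-fold lower then stayed at 3 for eIF2 with eIF2B, but was 1 for eIF1, eIF5 and eIF6 (5 on the main scale), 1 for eIF3 (2), 1 for eIF4 (2) and 0 for the elongation factors (1).

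Agreement in side between probe sets was counted over all members with several, past 1.2-fold or not. A gene's value is the mean of these same probe sets, so agreement in genes far from 0 is partly built in. Of the 29 members with several probe sets, 13 had all of them below 0 (background 24.2% of genes with several probe sets) and 2 (Eif3e and Eef2) had all of them above 0 (background 23.4%). The remaining genes had probe sets on both sides, among them Eif4ebp1, which lay past 1.2-fold. Of those with all probe sets below 0, Eif3c, Eif3d, Eif3m and Eif4a1 lay short of 1.2-fold.

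**Figure D1:**
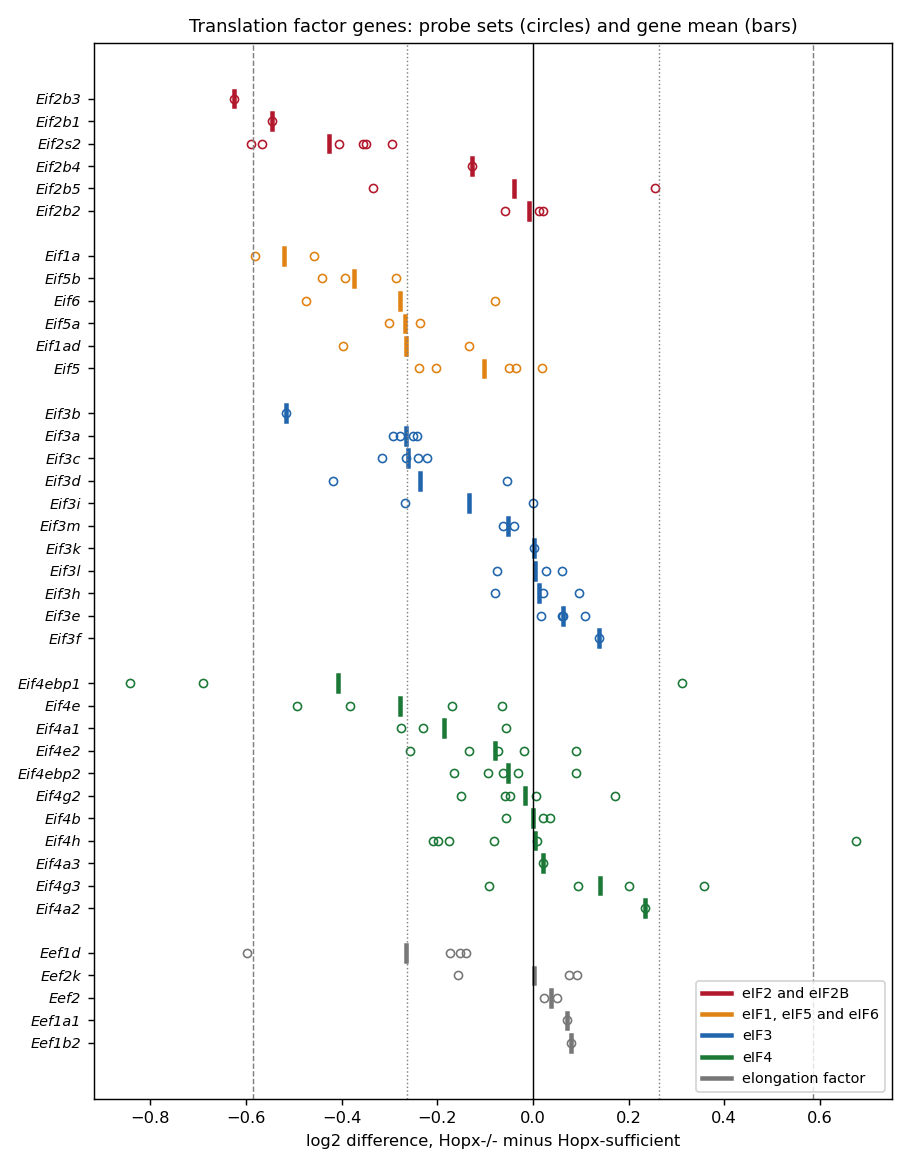
Log2 difference (x axis, Hopx-/- minus Hopx-sufficient) of the 39 measured translation factor genes, grouped by family. Circles are probe sets, bars are gene means, dotted lines mark 1.2-fold and dashed lines 1.5-fold. The eIF2 and eIF2B genes and the eIF1, eIF5 and eIF6 genes all have means below 0, while 4 of the 5 elongation factor genes lie above 0. Of all genes, 49.9% lie below 0. Scaled to the spike-ins, the 2 lower families keep negative medians, and eIF3 and eIF4 turn positive.

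All 6 measured genes of eIF2 and its exchange factor eIF2B had means below 0 (background 49.9%), with a median of -0.28. Past 1.2-fold lower were 3 of the 6 (50%, background 10.1%). Scaled to the spike-ins, 4 of the 6 were below 0 (background 24.9%) and the median was -0.15, beside 0.12 for all genes. Eif2s2, which encodes the beta subunit of eIF2, had the broadest coverage. Its 6 probe sets read -0.59, -0.57, -0.41, -0.35, -0.35 and -0.30. Every one was lower in Hopx-/- cells, and the gene mean was -0.43 ± 0.12 (SD over 6 probe sets, 1.34-fold lower), with 3.48% of all genes lying further down.

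The eIF2B genes split by subunit. Eif2b3 (gamma, part of the catalytic portion of the complex) was lowest of all members at -0.63, or 1.54-fold lower, and 175 of the 18193 genes were lower still. Eif2b1 (alpha, part of the regulatory portion that senses phosphorylated eIF2) stood at -0.55, or 1.46-fold lower. Each of these rests on 1 probe set. Eif2b4 (delta) was nearer to 0 at -0.13, also from 1 probe set. Eif2b2 (beta) was close to 0, with probe sets at -0.06, 0.01 and 0.02. Eif2b5 (epsilon, the catalytic subunit) averaged -0.04, but its probe sets went opposite ways, at -0.33 and 0.26. The catalytic and the regulatory portion did not separate, since each held 1 subunit beyond 1.2-fold.

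The genes for start-site selection, subunit joining and related steps formed the other family in which every mean was below 0. These were 6 of 6 (background 49.9%), with a median of -0.27. Scaled to the spike-ins, 5 of the 6 were below 0 (background 24.9%) and the median was -0.15, beside 0.12 for all genes. Of its genes, 5 were at least 1.2-fold lower (83.3%, background 10.1%), against 1 on the spike-in scale (background 4.54%). Eif1a, one of the genes for eIF1A, which helps the small subunit to scan, was lowest at -0.52, with probe sets at -0.58 and -0.46 (1.43-fold lower). A further probe set that Eif1a shares with 2 other symbols read 0.20 and did not enter its value. Eif5b, encoding the GTPase that joins the large subunit, had probe sets at -0.44, -0.39 and -0.29 and a mean of -0.37 ± 0.08 (SD over 3 probe sets).

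Eif6, encoding a factor that keeps the large subunit apart until it is mature, averaged -0.28, but its probe sets read -0.48 and -0.08. Eif1ad, encoding a protein with an eIF1A-like domain, averaged -0.27 from -0.40 and -0.13. Eif5a, whose product carries the modified lysine hypusine, averaged -0.27 from -0.30 and -0.24. Both Eif5a probe sets bear suffixes that mark possible cross-hybridisation, so the gene has no value without them. Eif5, encoding the GTPase-activating protein of eIF2, was highest of the family at -0.10, with 5 probe sets from -0.24 to 0.02. In these last 4 genes the probe sets agreed in side except in Eif5.

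The eIF3 complex did not move as a block. Its 11 measured genes had a median of -0.05 (0.07 when scaled to the spike-ins), with 6 below 0 (54.5%, background 49.9%) and 5 above. Of these 11, 2 were at least 1.2-fold lower (18.2%, background 10.1%). Eif3b, encoding the beta-propeller scaffold subunit, was lowest at -0.52 (1 probe set, 1.43-fold lower). Eif3a, the largest subunit, had 4 probe sets between -0.29 and -0.24 and a mean of -0.27 ± 0.02 (SD over 4 probe sets). Eif3c had 4 probe sets between -0.32 and -0.22 and a mean of -0.26 ± 0.04 (SD over 4 probe sets). These 2 genes had the closest agreement between probe sets among the members near 1.2-fold. Eif3d, whose product can bind the cap of some mRNAs, averaged -0.24 from -0.42 and -0.05, and Eif3i averaged -0.13 from -0.27 and 0.00.

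The other 6 subunits lay near 0. Eif3m was at -0.05, Eif3k at 0.0018, Eif3l at 0.0040 and Eif3h at 0.01. Eif3e had 4 probe sets between 0.02 and 0.11 and a mean of 0.06. Eif3f was highest at 0.14, from 1 probe set. Budding yeast builds eIF3 without counterparts of subunits d, e, f, h, k, l and m. A division on that basis, chosen after the values were seen, put the 4 measured subunits that yeast also has (a, b, c and i) at a median of -0.26, with a range from -0.52 to -0.13. The 7 that yeast lacks had a median of 0.0040, with a range from -0.24 to 0.14. The ranges overlapped through Eif3d and Eif3i. These medians were -0.14 and 0.13 when scaled to the spike-ins.

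**Figure D2:**
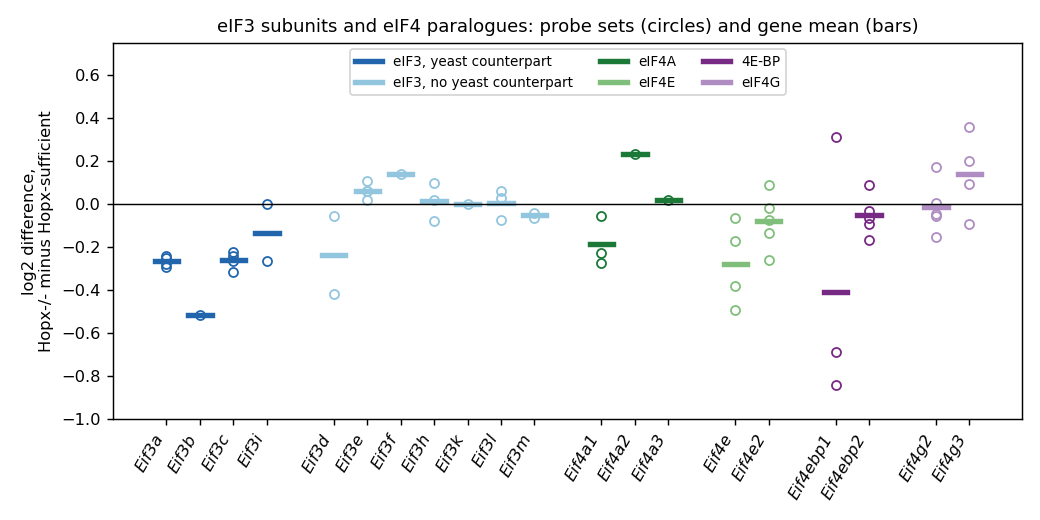
Log2 difference (y axis, Hopx-/- minus Hopx-sufficient) of the eIF3 subunit genes and of paralogous eIF4 genes. Circles are probe sets and bars gene means. Eif3a, Eif3b and Eif3c lie between -0.52 and -0.26, while Eif3e, Eif3f, Eif3h, Eif3k, Eif3l and Eif3m lie between -0.05 and 0.14, and the 3 probe sets of Eif4ebp1 disagree.

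The gene starts of the members were read for a feature known from this machinery. Many mRNAs of the translation machinery begin with an unbroken tract of pyrimidines (C or T), through which mTOR signalling and the protein Larp1 control their translation. RefSeq (GRCm38.p6) gives promoter sequences for 34 of the 44 members, from 250 bases before to 50 after each annotated start. The longest pyrimidine run was taken from 20 bases before to 30 after the start, and these settings were chosen after the values were seen. The following stretches of 30 bases show the longest run of that window in capitals, first in 4 eIF3 genes near 0 and in the elongation factor gene Eef2, then in 4 eIF3 genes that were lower.
Eif3f, chr7:108934404-108934433 (+): ttctaggCTCTCTCTCTTTCTCggcaagat
Eif3l, chr15:79075206-79075235 (+): aggcgcggagTTCTTCTTCCgctctctccc
Eif3k, chr7:28981855-28981884 (-): ctgaaagcgCCTTTCCCTTTgccttccttg
Eif3m, chr2:105017027-105017056 (-): acggcaccgCTCTCTTTTCCggtcggcgtg
Eef2, chr10:81176634-81176663 (+): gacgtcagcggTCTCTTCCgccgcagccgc
Eif3a, chr19:60790694-60790723 (-): cctgcctcctacaTCCggggctcgggcggc
Eif3b, chr5:140419295-140419324 (+): ggcgcgcggtgaCTTCTgggagtcggaagc
Eif3c, chr7:126566366-126566395 (-): ggcgtcgtgcctgTCTCacctgctcagagg
Eif3d, chr15:77970811-77970840 (-): agtggtagggccaTTTacgacagcgctggt

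The run spans 15 bases in Eif3f, 10 in Eif3l, 11 in Eif3k, 11 in Eif3m and 8 in Eef2. It spans 3 bases in Eif3a, 5 in Eif3b, 4 in Eif3c and 3 in Eif3d. Counted from the annotated start, the first 5 of these runs begin at -4, -7, 13, -20 and 14. They cover the start in Eif3f and Eif3l, end before it in Eif3m, and begin after it in Eif3k and Eef2. A run in the window thus need not open the mRNA. In Eif3a a longer run stands in lower case just before the window. Another begins at the last base of the window and is cut by its edge. It goes on in lower case at the end of the Eif3a stretch shown further below for CACGTG. Runs of 8 or more bases were found in 9 of the 30 measured members with a listed promoter (30%), against 21.8% of array genes with a listed promoter and 55.3% of cytosolic ribosomal protein genes. Over single promoters, 9 of the 41 of the measured members had one, and 19.0% of all listed promoters did. The 9 members with such a run were Eef1a1, Eef2, Eif2b2, Eif2b5, Eif3f, Eif3k, Eif3l, Eif3m and Eif4e. Their median difference was 0.0018, and 1 of them, Eif4e, was at least 1.2-fold lower. The 21 without one had a median of -0.13, and 7 of them were at least 1.2-fold lower. Over all genes, with or without a run, 10.1% were as low, a background that also applies to the windows below. In Eif4e the run lies at 1 of 2 listed starts. The division depends on the window. From 50 bases before to 50 after the start, the longest run spans 13 bases in Eif3a and 14 in Eif3c, 15 of the 30 members hold a run of 8 or more, and 4 of those 15 were at least 1.2-fold lower, as were 4 of the other 15. From 10 before to 20 after, 6 members hold such a run and 1 of them was at least 1.2-fold lower, against 7 of the other 24. Both windows were added after the first result was seen. Annotated starts can lie away from the start used in these cells, so a missing run says only that these letters are not in this window.

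**Figure D3:**
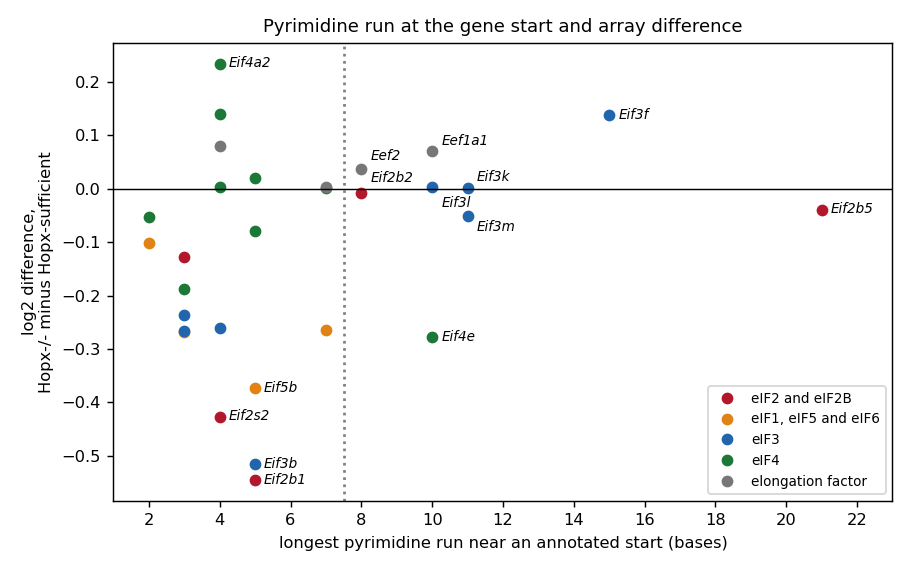
Longest pyrimidine run in bases (x axis; the longest over the listed starts of a gene) against log2 difference (y axis, Hopx-/- minus Hopx-sufficient) for 30 measured members, coloured by family. The dotted line separates runs of 8 or more bases. Of the 9 genes to its right, 8 lie between -0.05 and 0.14, and Eif4e lies at -0.28. The x axis covers 20 bases before to 30 after the start, and in the wider window Eif3a and Eif3c also hold long runs.

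The eIF4 family, which recognises the cap and unwinds the leader of the mRNA, was mixed. Its 11 measured genes had a median of -0.02 (0.11 when scaled to the spike-ins), with 6 below 0 (54.5%, background 49.9%) and 5 above. At least 1.2-fold lower were 2 of the 11 (18.2%, background 10.1%). Its paralogues are set side by side here.

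The helicase genes Eif4a1 and Eif4a2 stood on opposite sides. Eif4a1, encoding the form that predominates in growing cells, had probe sets at -0.27, -0.23 and -0.06 and a mean of -0.19 ± 0.12 (SD over 3 probe sets). Eif4a2, encoding the closely related second form, stood at 0.23 from 1 probe set, the highest value of any member, and 9.27% of all genes were higher. The gap between them was 0.42. Eif4a3, a paralogue that works in the exon junction complex, was at 0.02 by its 1 probe set. A further probe set shared by Eif4a3 and Gm5576 read -0.34.

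Eif4e, encoding the cap-binding protein, had probe sets at -0.49, -0.38, -0.17 and -0.06, all lower in Hopx-/- cells, with a mean of -0.28 ± 0.20 (SD over 4 probe sets). Its paralogue Eif4e2, whose product binds the cap and represses translation, averaged -0.08, with 5 probe sets from -0.26 to 0.09. Eif4ebp1, encoding a repressor that mTOR releases from eIF4E, had the widest disagreement of any member. Its probe sets read -0.84, -0.69 and 0.31, the mean was -0.41 ± 0.63 (SD over 3 probe sets), and without the probe set marked for cross-hybridisation the mean was -0.19. Its paralogue Eif4ebp2 averaged -0.05, with 5 probe sets from -0.17 to 0.09.

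Of the scaffold genes, Eif4g1 had no probe set of its own. Eif4g2, encoding a related protein that does not bind eIF4E, averaged -0.02, with 5 probe sets from -0.15 to 0.17. Eif4g3 averaged 0.14, with 4 probe sets from -0.09 to 0.36. The helicase cofactor genes were near 0, Eif4b at 0.00072 and Eif4h at 0.0035. For Eif4h this mean hides a single probe set at 0.68, while its other 5 lay between -0.21 and 0.01.

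The hexamer CACGTG, the E-box bound by Myc and related factors, was looked for in the same promoters, where it reads alike on both strands. It was found in 9 of the 30 measured members with a listed promoter (30%), against 10.2% of array genes with a listed promoter. Over single promoters it was found in 26.8% of those of the measured members and in 7.15% of all listed ones. Some genes have several listed starts, and the windows of Eif5a partly overlap. The 3 carriers at least 1.2-fold lower were Eif3a, Eif4e and Eif5a, and 5 of the 21 members without it were as low. The background was 10.1% of all genes. The other carriers were Eif4a1 at -0.19, Eef2 at 0.04 and Eif3f at 0.14, with Eif3k, Eef2k and Eif4h close to 0 at 0.0018, 0.0031 and 0.0035. The median of the 9 carriers was 0.0018 and that of the 21 others -0.05. The hexamer is shown in capitals for the 3 lower carriers and for the elongation factor gene Eef2 and Eif3f, which were above 0.
Eif3a, chr19:60790654-60790683 (-): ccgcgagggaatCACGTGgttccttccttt
Eif4e, chr3:138527028-138527057 (+): ctcgccagcgacCACGTGatcacttttttt
Eif5a, chr11:69921443-69921472 (-): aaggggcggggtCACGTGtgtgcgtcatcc
Eif3f, chr7:108934335-108934364 (+): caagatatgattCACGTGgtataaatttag
Eef2, chr10:81176576-81176605 (+): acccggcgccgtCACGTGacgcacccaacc

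The elongation factor genes were mostly just above 0. Of 5 measured, 4 were above 0 and 1 was below 0 (20%, background 49.9%). That gene was also the only 1 at least 1.2-fold lower (20%, background 10.1%). The median was 0.04 (0.16 when scaled to the spike-ins). Eef1a1, which encodes the protein that delivers tRNAs to the ribosome, stood at 0.07 and Eef1b2, a subunit of its exchange factor, at 0.08, each by 1 probe set. Eef2, encoding the translocase, had probe sets at 0.02 and 0.05. Eef2k, encoding the kinase that inhibits it, averaged 0.0031, with probe sets from -0.16 to 0.09. Eef1d, encoding another subunit of the exchange factor, was the exception at -0.27 ± 0.22 (SD over 4 probe sets). One of its probe sets read -0.60 and the other 3 lay between -0.17 and -0.14. The 2 probe sets that Eef1g shares with Gm29753 read -0.03 and -0.13.

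Beside the other parts of the machinery, the factors lay between ribosomal proteins and tRNA charging. The 43 measured cytosolic ribosomal protein genes had a median of -0.01, from -0.44 (Rpl14) to 0.16 (Rps16). Of them, 3 were at least 1.2-fold lower (6.98%, background 10.1%). Of the 19 measured cytosolic aminoacyl-tRNA synthetase genes, 18 were below 0 (94.7%, background 49.9%) and 14 were at least 1.2-fold lower (73.7%, background 10.1%). The median was -0.41. Aars was lowest at -0.78 and Qars highest at 0.14. No test separates these lists, which share both arrays. With scaling to the spike-ins, the medians were 0.11 for the ribosomal proteins and -0.29 for the synthetases. On that scale the medians of the lists that follow were 0.029 for the further factors, 0.056 for the eIF2 stress list, -0.22 for the hypusine list and -0.21 for termination and recycling, so the first 2 turned positive. Past 1.2-fold on that scale, 3 of the 19 further factors were lower and 5 higher. In the eIF2 stress list, 3 of 11 were lower and 2 higher. For termination and recycling 3 of 6 were lower, and in the hypusine list 1 of 4 (Srm). The backgrounds on that scale were 4.54% of all genes lower and 20.9% higher.

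Among 19 further cytosolic factors outside the 44 members, 12 were below 0 (63.2%, background 49.9%), with a median of -0.09. By 1.2-fold or more, 6 were lower (31.6%, background 10.1%) and 3 higher (15.8%, background 7.1%). Lowest was Eef1e1, encoding a component of the synthetase complex despite its name, at -0.70. Eif2s3x, the X-linked gene for the gamma subunit of eIF2, averaged -0.41 over 3 probe sets, all below 0, next to Eif2s2 in its complex. Eif1ax, a paralogue of Eif1a, averaged -0.33, with 3 probe sets from -0.48 to -0.17. The highest was Pdcd4, encoding an inhibitor of eIF4A, at 0.50 by 1 probe set. Pabpc1, encoding the poly(A)-binding protein, averaged 0.42, but its probe sets read -0.01 and 0.86. Paip2, encoding an inhibitor of that protein, stood at 0.33. Apart from Eef1e1 and Pdcd4, the genes named here were picked after their values were seen.

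The enzymes that make hypusine, the modified lysine of eIF5A, and its precursor spermidine were at least 1.2-fold lower in 4 of 4 cases (background 10.1%), and in 1 of 4 on the spike-in scale. Dhps, the first enzyme of the modification, had probe sets at -0.36 and -0.34. Dohh, the second, had probe sets at -0.59 and -0.0075 and was the highest of the list at -0.30. Odc1, which starts polyamine synthesis, averaged -0.34 over 3 probe sets, and Srm, which makes spermidine, was the lowest at -1.24 by 1 probe set. Genes of termination and recycling were below 0 in 5 of 6 cases (83.3%, background 49.9%), with a median of -0.34. At least 1.2-fold lower were 4 of the 6 (66.7%, background 10.1%). Pelo, a ribosome rescue factor, was lowest at -0.47 and its partner Hbs1l highest at 0.01. The release factor genes Etf1 and Gspt1, picked after their values were seen, averaged -0.42 and -0.40, with all 6 probe sets of each below 0.

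Around eIF2, the list of stress kinases, phosphatase subunits, ATF4 and its targets went both ways (11 genes, median -0.07). Of these, 5 were at least 1.2-fold lower (45.5%, background 10.1%) and 2 higher (18.2%, background 7.1%). Eif2ak2, the kinase PKR that double-stranded RNA activates and interferon induces, was lowest at -0.50, with 3 probe sets from -0.60 to -0.39. The other kinase genes, Eif2ak1, Eif2ak3 and Eif2ak4, lay between -0.07 and 0.05. Ppp1r15a, which directs a phosphatase to eIF2, was highest at 0.47. Atf4, the factor translated when eIF2 is phosphorylated, averaged -0.33 over 3 probe sets, all below 0, and its targets Asns, Chac1 and Trib3 averaged -0.43, -0.48 and -0.32. Ddit3, another target, stood at 0.34.

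**Figure D4:**
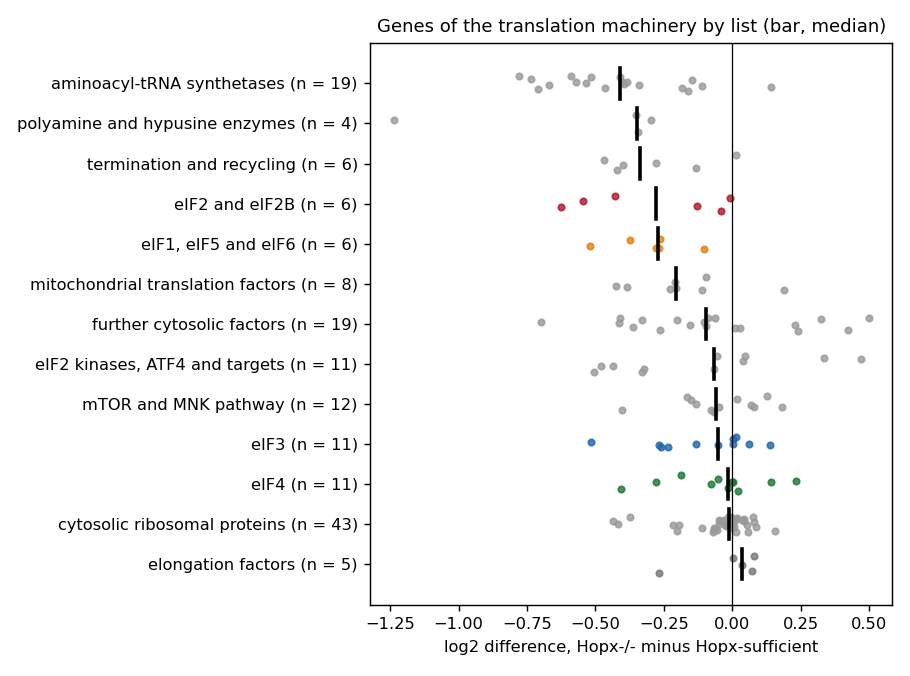
Log2 difference (x axis, Hopx-/- minus Hopx-sufficient) of single genes (points, spread vertically for legibility) in lists of the translation machinery, ordered by median (black bar). Aminoacyl-tRNA synthetases lie lowest (median -0.41), eIF2 with eIF2B (-0.28) and eIF1 with eIF5 and eIF6 (-0.27) in between, and eIF4 (-0.02), ribosomal proteins (-0.01) and elongation factors (0.04) nearest to 0. Scaled to the spike-ins, the medians of eIF3, eIF4, ribosomal proteins, further cytosolic factors, the mTOR and MNK list and the eIF2 kinase list lie above 0.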

How the data were processed

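Biotin-labelled target from the total RNA of sorted cells went onto single-colour arrays of 45101 probe sets, per the labels. The authors deposited log2-type values from which each probe set's mean over both arrays had been taken away (largest absolute row sum 1e-06). Base 2 was assumed, since log base, summarisation and normalization are not given in the sources used here. Probe sets were named by the platform annotation of 2016, with symbols updated by gene ID (GRCm38.p6, 34741 of 34945 single-symbol probe sets found). No gene value used the 64 controls, the 9160 probe sets without a symbol or the 932 that carry more than 1. Differences were centred on the single-symbol median (0.0075 before centring) and averaged per gene. With 1 array per group the number of arrays limits the precision, and no test was made.

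Every member is given, with probe set values for those beyond 1.2-fold and at the ends of each family. The lowest and highest member of each other list are named. Members and lists were chosen with earlier results of these data known. The gene value step was tested on simulated data. Alternatives were no centring, centring on spike-ins, the median or most different probe set, removal of probe sets by suffix or by the finest value steps, and natural logs. Python 3.11.15, numpy 2.4.6, pandas 2.3.3 and matplotlib 3.10.9 were used.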

Additional observations from a re-analysis of the deposited data

Results flagged for a closer look

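One signal lay in probe sets kept out of the gene values because they carry several symbols. A probe set shared by Eif4a3 and Gm5576, read -0.34 (Hopx-/- minus Hopx-sufficient), past 1.2-fold, whereas the probe set of Eif4a3 alone read 0.02. Which of the 2 genes it reports was not tested.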

How the results depend on the processing

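No paired analysis was possible because there was only 1 array of each genotype, which also leaves no replicate to omit. Centred on the spike-ins, the median of all factors turned to 0.045 and that of eIF3 to 0.072. The medians were -0.15 for eIF2 with eIF2B, 0.11 for eIF4, 0.16 for elongation factors and -0.15 for eIF1, eIF5 and eIF6. Then 6 factors were at least 1.2-fold lower (background 4.54%), 2 higher (background 20.9%) and 0 at least 1.5-fold lower. By construction this centring adds the spike-in shift to every value. With the median over probe sets, 2 factors were at least 1.5-fold lower. With the most different probe set, the median of all factors was -0.24, that of eIF2 with eIF2B -0.44 and that of eIF1, eIF5 and eIF6 -0.42. By 1.2-fold or more, 18 factors were then lower (background 17.6%) and 2 higher (background 15.1%). By 1.5-fold or more, 4 were lower and 1 higher. Natural logs, which multiply every value by 1.44, gave -0.40 and -0.39 for those same families. With them 16 factors were at least 1.2-fold lower (background 17.1%), 1 higher (background 14.7%) and 6 at least 1.5-fold lower. All-gene shares at 1.5-fold were not computed for the alternatives. Without centring, 9 of the 13 factors stayed past 1.2-fold (background 9.56% lower). The pyrimidine runs were also read in 2 other windows, chosen after the data were seen, and the wider one ended the difference in counts of lower genes. No factor past 1.2-fold changed sign under the 7 alternatives, but Eif5a has no value once probe sets with the suffixes _s_at and _x_at are removed.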

Other observations

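The factors of mitochondrial translation, which serve the separate ribosome of that organelle, were below 0 in 7 of 8 measured genes (median -0.21). That is 87.5%, against a background of 49.9%, and 2 were at least 1.2-fold lower (25%, background 10.1%). When scaled to the spike-ins, 5 of the 8 were below 0 (background 24.9%) and the median was -0.082. By 1.2-fold or more, 1 gene was then lower (background 4.54%) and 1 higher (background 20.9%). Tsfm, the exchange factor of the mitochondrial tRNA carrier, was lowest with probe sets at -0.48 and -0.37, and the initiation factor gene Mtif2 was highest at 0.19. Genes of the mTOR and MNK pathways, which control eIF4E and its binding proteins, stayed closer to 0 (12 genes, median -0.06). That median turned to 0.065 when scaled to the spike-ins. Of these 12 genes, 1 was at least 1.2-fold lower (8.33%, background 10.1%). Their lowest member was Larp1, the binder of pyrimidine tracts, at -0.40 by 1 probe set, and the highest was Rps6kb2, an S6 kinase gene, at 0.18.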
